A study of Bos taurus with 2 samples.

Results

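Nuclei of bovine (Bos taurus, wild type) blastoids were examined for barcodes that carry RNA of secreted endoderm proteins. The barcodes, called carriers here, had at least 500 detected genes, fewer than 4000 UMIs (unique molecular identifiers, each a counted RNA molecule) and under 2.5% of UMIs from the 13 mitochondrial mRNAs. They also held at least 2 UMIs summed over AFP, TTR, APOA1, APOA2 and APOB. The rule took 963 of the 1957 barcodes of the blastoid library, out of 2901 barcodes in the whole series. Within the 1220 shallow blastoid barcodes of low mitochondrial share, carriers made up 78.9% (exact binomial 95% interval 76.5% to 81.2%), so the rule describes the bulk of that set. A further 164 barcodes held 1 such UMI, and 93 held 0 and served as the reference.

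The series compares blastoids with day-8 blastocysts, 1 library each, so no test across replicates was possible and each interval below covers counting error only. A blastoid is a blastocyst-like structure; here it was assembled in microwells from 3 kinds of stem cells (8 labelled bEPSC, 8 bXEN and 16 bTSC), after depletion of feeder cells, in a medium with LIF, activin A, CHIR99021 and the CEPT survival cocktail. Blastoids and embryos were frozen before nuclei were isolated and loaded on a 10x Genomics Chromium chip. How many structures were pooled for each library is not given in the sources used here. The blastoid library held 7575395 UMIs with a median of 2012 UMIs per barcode, and 1 barcode sequence, that of a carrier, also occurred in the blastocyst library.

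The hypoblast is the extraembryonic endoderm that lines the blastocyst cavity and goes on to form the yolk sac lining. Before the liver takes over, yolk sac endoderm makes many plasma proteins, and it is a classical site of AFP, transthyretin and apolipoprotein synthesis. Cells with this programme are usually also recognised by the transcription factors GATA4, GATA6, SOX17, FOXA2 and HNF4A. Trophectoderm, the outer epithelium that becomes the placental trophoblast, is recognised by GATA2, GATA3, TFAP2A and CDX2 and by the simple epithelial keratins KRT8, KRT18 and KRT19, which other simple epithelia share.

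APOA1 supplied most of the rule's UMIs. APOA1, the main protein of high-density lipoprotein, had 2924 UMIs in the carriers, or 1536 CPM (UMIs scaled to 1000000 UMIs of the summed set; exact Poisson 95% interval 1481 to 1593), and was detected in 96.9% of them. AFP, the fetal counterpart of albumin, had 576 UMIs (303 CPM, 278 to 328) in 41.3% of carriers. TTR, a carrier of thyroid hormone and of retinol-binding protein, had 130 UMIs (68.3 CPM, 57.1 to 81.1) in 11.3%. APOA2, the second protein of high-density lipoprotein, had 120 UMIs (63.0 CPM, 52.3 to 75.4) in 10.6%, and APOB, the structural protein of low-density lipoprotein, had 62 UMIs (32.6 CPM, 24.97 to 41.75) in 5.82%. The order of the levels was therefore APOA1, AFP, then TTR and APOA2 with overlapping intervals, then APOB. These levels were fixed in part by the rule and are given as a description.

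Of the 3812 rule-gene UMIs in the carriers, 76.7% were APOA1 and 15.1% AFP. APOA1 was the only gene of the 5 in 404 carriers (42.0%), and 30 carriers (3.12%) had none of it. Detection of 1 gene was seen in 420 carriers, of 2 genes in 462, of 3 in 71, of 4 in 9 and of all 5 in 1. The number of rule-gene UMIs had a median of 3 and reached 30. Just inside the threshold lay 249 barcodes with 2 UMIs and just outside it 164 with 1. These sets had medians of 1886 and 1878 UMIs and 1079 and 1074.5 genes, and their ribosomal protein shares were 15.8% and 15.9%. No gap separated carriers from the rest, as the plot of barcodes by rule-gene UMIs shows.

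**Figure D1:**
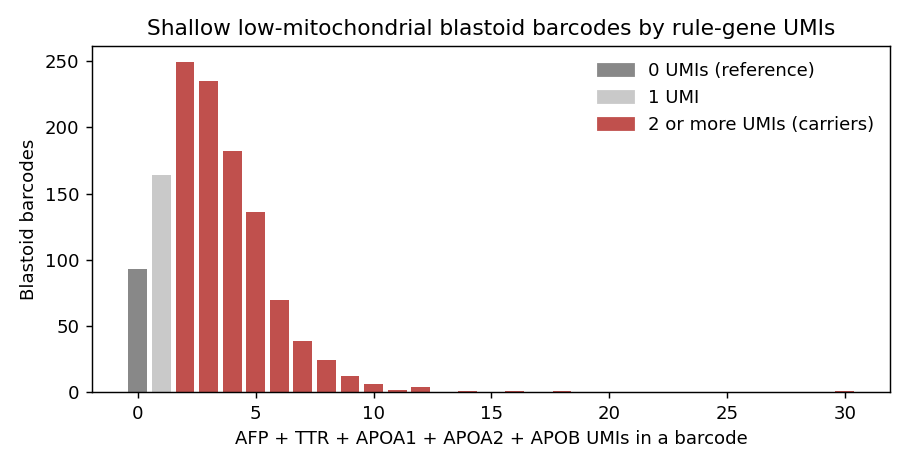
Number of shallow low-mitochondrial blastoid barcodes (vertical axis) by the summed UMIs of AFP, TTR, APOA1, APOA2 and APOB in the barcode (horizontal axis), with the 93 reference barcodes in dark grey, the 164 barcodes with 1 UMI in light grey and the 963 carriers in red. The distribution has a single peak at 2 UMIs, with 249 barcodes, and a thin tail up to 30.

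In gene order, taken from RefSeq (ARS-UCD2.0, matched by symbol and used for neighbours only, since the build of the files is not given in the sources used here), AFP lies beside ALB and AFM, and APOA1 beside APOC3, APOA4 and APOA5. These neighbours encode related plasma proteins. In the carriers ALB had 1 UMI and AFM 0, against 576 of AFP. APOC3 and APOA4 had 3 UMIs each and APOA5 had 0, against 2924 of APOA1. The RNA of the carriers thus held AFP and APOA1 almost without these adjacent family members.

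Other secreted proteins of yolk sac endoderm and liver, which the rule did not use, had similar summed levels in barcodes with and without rule-gene UMIs. A list of 41 such genes, 39 of them in the table, summed to 2973 UMIs or 1562 CPM (1506 to 1619) in all carriers. The sum was 1580 CPM (1399 to 1778) in barcodes with 0 rule-gene UMIs, 1422 (1292 to 1561) with 1, 1540 (1431 to 1656) with 2, 1569 (1485 to 1656) with 3 to 4 and 1569 (1470 to 1673) with 5 or more. All 5 intervals overlapped, and the set with 1 UMI had the lowest value. RBP4, the retinol carrier of plasma, led the list in the carriers with 938 UMIs (493 CPM), followed by APOE, a lipoprotein ligand of the LDL receptor family, with 815 (428 CPM). TFPI, an inhibitor of coagulation, had 395 UMIs, AHSG (fetuin-A) 248, SERPINA1 (alpha-1 antitrypsin) 136 and TF (transferrin) 123. Fibrinogen chains were scarce, with 18, 15 and 25 UMIs of FGA, FGB and FGG. AMBP, VTN, HPX, AGT and SPP2 had 0.

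Carriers were then compared with reference barcodes of like depth. Each carrier, from the deepest down, took the unused reference barcode nearest in total UMIs within 10%, which paired 88 carriers with 88 reference barcodes and left 5 without a partner. The sums held 187953 and 169743 UMIs, with medians of 2018 and 1818.5 UMIs per barcode, so the carriers stayed somewhat deeper. A gene entered with at least 50 UMIs in both sums together, outside the 5 rule genes, and 1065 genes did. Of these, 7 were at least 2-fold higher in carriers (0.657%) and 8 at least 2-fold lower (0.751%), or 15 in either direction (1.41%). The median log2 ratio was -0.00, and the central 90% of genes lay between -0.56 and 0.60. Of 111 genes with at least 500 UMIs, 0 passed 2-fold in either direction, and their log2 ratios ran from -0.32 to 0.46.

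**Figure D2:**
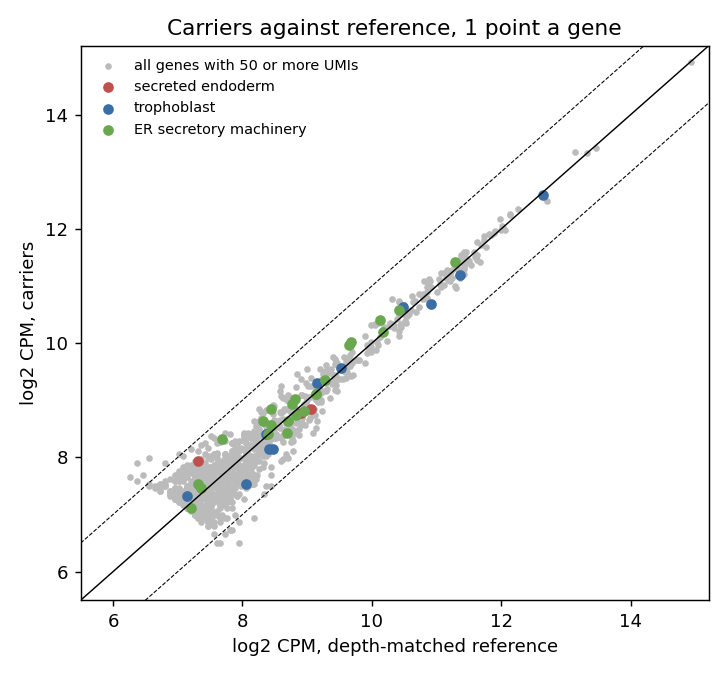
Log2 CPM in the 88 matched carriers (vertical axis) against the 88 matched reference barcodes (horizontal axis), 1 point for each of 1065 genes with at least 50 UMIs; the solid line is equality and dashed lines are 2-fold. Secreted endoderm genes (red), trophoblast markers (blue) and endoplasmic reticulum (ER) genes (green) lie within the 2-fold lines, and the points outside are at low levels.

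The secreted list had 300 UMIs (1596 CPM) in the matched carriers and 272 (1602 CPM) in the matched reference, a ratio of 0.996 (exact conditional 95% interval 0.843 to 1.18). Of its 3 genes with enough UMIs, 0 passed 2-fold, and their median log2 ratio was -0.13 beside -0.00 over all genes. APOE had 82 against 81 UMIs (ratio 0.914, 0.664 to 1.26). RBP4 had 87 against 91 UMIs (0.863, 0.636 to 1.17). TFPI had 46 against 27 UMIs (1.54, 0.937 to 2.57), and AHSG 28 against 19 (1.33, 0.717 to 2.52). Each of these intervals includes 1. Against barcodes with 1 rule-gene UMI in place of 0, the list's ratio was 1.15 and its interval (1.01 to 1.30) excluded 1.

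Regulators of endoderm were scarce in the carriers. Over all 963 carriers and 1903664 UMIs, 20 endoderm regulators summed to 124 UMIs (65.1 CPM, 54.2 to 77.7). GATA6 had 40 UMIs, PROX1 13, SOX17 9, GATA4 6 and HNF4A 3, while FOXA2 and SOX7 had 0. The same list had 74.5 CPM in shallow blastoid barcodes with at least 2.5% mitochondrial UMIs (mitochondrial-rich), and 148 and 255 CPM in deep blastoid nuclei (at least 4000 UMIs) with at least 2 and with fewer UMIs of GATA2 and GATA3. It had 1767 CPM in blastocyst barcodes with at least 500 genes and under 10% mitochondrial UMIs, which are mostly deep and have a ribosomal protein share of 0.992%. In matched carriers it had 12 UMIs and in the reference 9 (ratio 1.20, 0.466 to 3.24), and no gene of it had enough UMIs for the 2-fold count. The endocytic list, with the cubilin and megalin (LRP2) receptors and lysosomal proteases, had 754 against 646 UMIs (1.05, 0.948 to 1.17), with 0 of 6 genes past 2-fold and a median log2 ratio of -0.00. LRP2 stood at 1027 against 819 CPM (1.25, 1.003 to 1.571), and at a ratio of 1.07 (0.903 to 1.27) over all barcodes. CUBN, the partner of LRP2 in protein uptake, had only 8 UMIs in all carriers. Basement membrane genes had 201 against 154 UMIs (1.18, 0.951 to 1.46), with 0 of 3 past 2-fold and a median of -0.20; FN1 (fibronectin) had 86 against 52 UMIs (1.49, 1.05 to 2.15), with 30 of the 86 in a single carrier, and a ratio of 1.12 (0.842 to 1.51) over all barcodes. The list's interval excluded 1 when at least 1000 genes were asked for (1.32, 1.03 to 1.69) and with a mitochondrial limit of 10% (1.23, 1.02 to 1.49), while the ratio was 0.879 (0.708 to 1.10) when thinned.

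Trophoblast markers were the most abundant lineage list in the carriers. The 23 genes summed to 28956 UMIs, 1.52% of all carrier UMIs (15211 CPM, 15036 to 15387), against 2002.5 CPM for the 5 rule genes. KRT18 had 11928 UMIs, KRT8 4719 and KRT19 3444. PAGE4, a placenta-expressed gene of the PAGE family, had 2895 UMIs, and CGA, the common subunit of glycoprotein hormones, 718. Among the transcription factors of the list, GATA2 had 268 UMIs, GATA3 125, CDX2 119, TFAP2C 83 and TFAP2A 58, each above the 40 of GATA6. Others lay below it, with 22 UMIs of DLX3, 17 of TEAD4, 9 of HAND1 and 6 of ELF5. In the depth-matched sets the list had 2778 against 2632 UMIs (ratio 0.953, 0.903 to 1.01), with 0 of 11 genes past 2-fold and a median log2 ratio of -0.04. Under other settings the list's ratio ran from 0.930 (0.881 to 0.982), with at least 10% ribosomal protein UMIs, to 1.04 (0.999 to 1.09), with AFP alone; without APOA1 in the rule it was 1.04 (1.005 to 1.076). KRT18 was detected in 99.8% of the shallow low-mitochondrial barcodes and also in 100% of deep nuclei with fewer than 2 UMIs of GATA2 and GATA3. The working label, endoderm secretory RNA, therefore covers barcodes whose defining endoderm regulators were near 0 and whose trophoblast and keratin RNA exceeded the rule genes, so they are named here by the rule alone.

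Markers of further cell types stood below the trophoblast list. The 15 epiblast genes in the table had 307 CPM in the carriers, led by LIN28B with 162 UMIs and SOX2 with 145, and NANOG had 9. The matched ratio was 0.919 (0.622 to 1.36). Mesoderm and fibroblast markers had 685 CPM, of which VIM, an intermediate filament gene of many cultured cells, gave 1111 of 1304 UMIs. COL1A1 and COL3A1 had 15 and 4. The matched ratio of this list was 0.946 (0.735 to 1.22). In deep nuclei with at least 2 and with fewer UMIs of GATA2 and GATA3 this list was lower, at 149 and 258 CPM. The epiblast list was higher there than in the carriers, at 604 and 690 CPM. Blood and endothelial genes had 19 UMIs in all carriers. Long neural adhesion genes such as DCC and CTNNA2 stood at 663.5 CPM, against 12639 CPM in deep nuclei with fewer than 2 UMIs of GATA2 and GATA3, and their matched ratio was 1.11 (0.835 to 1.48).

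The general make-up of the RNA differed little between carriers and reference. Ribosomal protein genes gave 15.8% (15.8% to 15.9%) of UMIs in all carriers and 15.3% (15.1% to 15.4%) in all reference barcodes. In the matched sets the ratio was 1.01 (0.992 to 1.03). Genes of protein entry into and folding in the ER, which a secreting cell uses, had 3015 against 2488 UMIs (1.09, 1.04 to 1.16), and 0 of 23 passed 2-fold, with a median log2 ratio of 0.12. CALR, a chaperone of the ER, stood at 2735 against 2480 CPM (1.10, 0.967 to 1.26), and HSPA5, the ER chaperone BiP, at 1362 against 1119 CPM (1.22, 1.00 to 1.48). Nuclear genes of oxidative phosphorylation had a ratio of 1.08 (1.03 to 1.14), with 1 of 46 past 2-fold higher. Cholesterol synthesis genes (0.976, 0.876 to 1.09), iron and metal genes (1.07, 0.946 to 1.21), S phase (0.940, 0.769 to 1.15), G2 and M phase (1.12, 0.985 to 1.28), imprinted (0.997, 0.831 to 1.20), stress (1.10, 0.827 to 1.47) and mitochondrial genes (1.02, 0.959 to 1.07) had intervals that include 1. In the matched sets, the ER and oxidative phosphorylation lists were those whose intervals excluded 1. The matched carriers were also the deeper set, and the part of depth in these ratios was not tested. The ER interval included 1 with carriers set by AFP alone (1.02, 0.979 to 1.07), against barcodes with 1 rule-gene UMI (1.02, 0.985 to 1.07) and without APOA1 in the rule (1.03, 0.996 to 1.07). Under the other settings the ER interval excluded 1. Its ratio was 1.08 (1.02 to 1.14) when thinned and 1.09 (1.04 to 1.13) with all barcodes and no match. With at least 10% ribosomal protein UMIs it was 1.08 (1.03 to 1.14). The oxidative phosphorylation interval included 1 when thinned (1.03, 0.975 to 1.08), with at least 3 rule-gene UMIs (1.04, 0.989 to 1.09), under 3000 UMIs (1.05, 0.997 to 1.10), against barcodes with 1 rule-gene UMI (1.01, 0.975 to 1.05) and without APOA1 (1.02, 0.986 to 1.05). Other lists excluded 1 under some settings. The stress list did so with at least 3 rule-gene UMIs (1.34, 1.02 to 1.77) and when each reference barcode took 5 carriers (1.26, 1.009 to 1.595). Cholesterol genes did so in the latter setting (0.913, 0.838 to 0.995). Mitochondrial genes did so without matching (1.05, 1.004 to 1.095), with a mitochondrial limit of 10% (1.06, 1.02 to 1.105) and without APOA1 (1.065, 1.027 to 1.104).

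**Figure D3:**
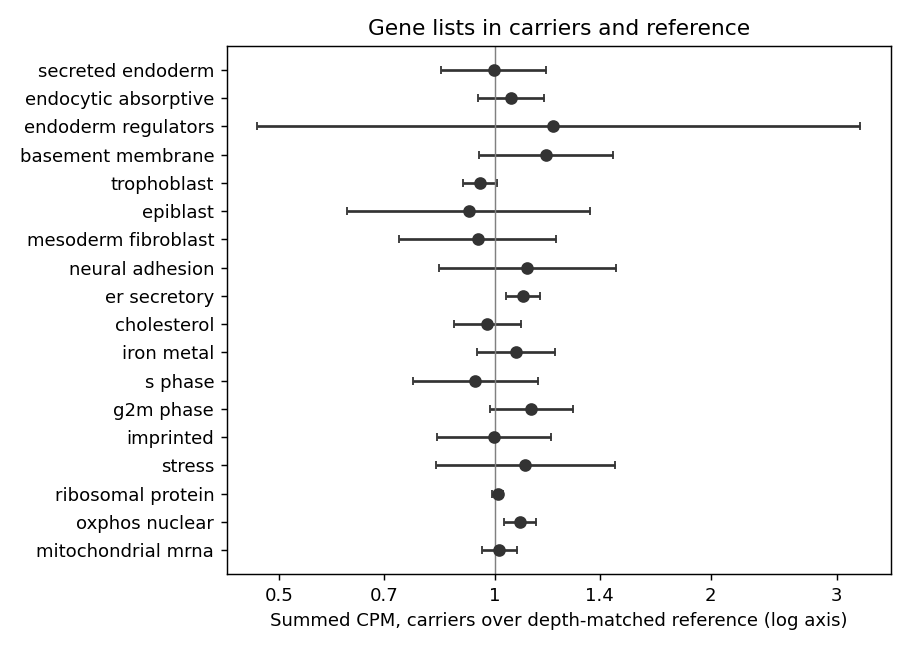
Ratio of summed CPM, matched carriers over matched reference, for each gene list (log axis), with exact conditional 95% intervals for counting error and a vertical line at 1. Most lists lie between 0.9 and 1.2, and the widest interval belongs to the endoderm regulators, which rest on 12 and 9 UMIs.

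Among the 1065 genes, the ranking by ratio returned genes near the count minimum, with at most 93 UMIs in both sums. ELOVL1, a fatty acid elongase, led with 45 against 14 UMIs (2.90, 1.57 to 5.73), then SNX6, a sorting nexin, with 38 against 13 (2.64, 1.38 to 5.40), PHPT1 with 36 against 14 and IPO5, a nuclear import receptor, with 45 against 19. NDUFB5 of respiratory complex I had 50 against 22 (2.05, 1.22 to 3.56). SPTLC1, AQP11, DNAJC8, ATP2B1, MKI67, HYPK and RBM25 followed, down to a ratio of 1.77. Over all carriers and all reference barcodes, 1 of these 12 (PHPT1, 2.005) still reached 2-fold. Below the minimum of 50 UMIs, and so outside this ranking, DHCR7, a late enzyme of cholesterol synthesis, had 31 against 4 UMIs (7.00, 2.48 to 27.3) and 227 against 4 over all barcodes (5.19, 2.00 to 19.2); it is named after its values were seen. By detection, ATP5F1B differed most, with a UMI in 61 of 88 carriers and 39 of 88 reference barcodes, followed by NDUFB5, ELOVL1, COX4I1 and PGK1.

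The lowest ratios included MAGI1, a junction scaffold (23 against 49 UMIs, 0.424, 0.247 to 0.709), FBXL7 (17 against 34), DNAJC10, GMNN, SLC44A4, PSMD8 and TRA2A, then PTPRK, CDH1 (E-cadherin; 34 against 59, 0.520), NEDD4L and CHD1L. For some of these a few reference barcodes held high counts. In the matched sets, a single reference barcode held 14 UMIs of MAGI1, and maxima of 10 to 11 UMIs were seen for FBXL7, PTPRK, NEDD4L and DNAJC10, while no carrier held more than 3 of any of them. Of the 93 reference barcodes, 6 (6.45%, 2.40% to 13.5%) had under 10% ribosomal protein UMIs, against 3 of 963 carriers (0.312%, 0.0643% to 0.908%) and 0 of 164 barcodes with 1 rule-gene UMI. Those 6 barcodes held 7999 UMIs and 23 of the 58 MAGI1 UMIs of the reference, 15 of 39 of FBXL7, 17 of 47 of NEDD4L, 12 of 40 of DNAJC10, 14 of 59 of PTPRK and 5 of 62 of CDH1. Over all barcodes, ratios were 0.397 for MAGI1, 0.354 for FBXL7, 0.496 for DNAJC10 and 0.422 for NEDD4L, whose matched ratio was 0.542. The other genes named here lay between 0.559 and 0.660, closer to 1 than in the matched sets. When barcodes under 10% were left out, 5 of 1030 genes in the matched sets were at least 2-fold lower in carriers.

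Each rule gene was then read in barcodes chosen by the other 4. AFP stood at 242 CPM (186 to 309) in barcodes with at least 2 UMIs of the other genes and at 213 CPM (158 to 280) in depth-matched barcodes with 0 of them, a ratio of 1.14 (0.772 to 1.68). For TTR the ratio was 1.17 (0.476 to 2.99), for APOA2 0.903 (0.295 to 2.76) and for APOB 0.602 (0.125 to 2.54). APOA1 stood at 1288 against 1079 CPM (1.19, 1.06 to 1.35) in matched barcodes, but at 1.04 (0.946 to 1.15) when all 625 barcodes with 0 UMIs of the others were used. The intervals of TTR, APOA2 and APOB rest on 4 to 13 UMIs a side and allow differences of more than 2-fold in either direction.

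Similarity over other genes did not separate the carriers either. Among the 15 nearest neighbours of carriers, in principal components computed without the rule genes, 80.3% were carriers. Among the neighbours of reference barcodes 81.5% were carriers, and their share of all 1220 barcodes was 78.9%. For barcodes with at least 5 rule-gene UMIs the values were 24.02%, 25.2% and 24.3%.

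The same 5 genes occurred throughout the blastoid library. In the 441 shallow barcodes with at least 2.5% mitochondrial UMIs, 77.1% (72.9% to 80.9%) held at least 2 rule-gene UMIs, at a median of 1909 UMIs against 1931.5. Levels there were 1173 CPM of APOA1, 285 of AFP, 47.0 of TTR, 44.7 of APOA2 and 17.2 of APOB, beside 1279, 250, 57.0, 52.4 and 27.7 in all shallow low-mitochondrial barcodes. In the 288 barcodes with at least 4000 UMIs and under 10% mitochondrial UMIs, called deep nuclei, 81.9% had 2 rule-gene UMIs at a median of 13048 UMIs. After thinning every barcode to 1000 UMIs, the share was 48.3% (45.4% to 51.1%) in shallow low-mitochondrial barcodes, 38.3% (33.8% to 43.0%) in mitochondrial-rich ones and 5.90% (3.48% to 9.28%) in deep nuclei; 4 shallow low-mitochondrial barcodes were left out.

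In deep nuclei with at least 2 UMIs of GATA2 and GATA3, a gate on trophoblast regulators, AFP stood at 29.6 CPM (23.5 to 36.8) and APOA1 at 150 CPM (136 to 165). The thinned share with an AFP UMI was 4.46% (1.81% to 8.97%) there, at a median depth of 15475 UMIs, and 20.3% (18.1% to 22.7%) in shallow barcodes, at 1931.5. Unthinned, these shares were 38.9% and 34.3%. AFP was 8.46-fold (6.70 to 10.8) and APOA1 8.52-fold (7.69 to 9.47) higher in shallow barcodes than in these nuclei, TTR 7.80-fold, APOA2 10.2-fold and APOB 12.6-fold (5.501 to 35.64). Genes outside the rule lay on both sides. RBP4 was 9.08-fold, AHSG 8.31-fold, APOE 6.38-fold and KRT18 5.47-fold (5.27 to 5.69) higher in shallow barcodes. TFPI had a ratio of 0.938 (0.830 to 1.06), C3 1.26, antithrombin (SERPINC1) 0.266, ceruloplasmin (CP) 0.169, LRP2 0.284 and GATA6 0.229. Against deep nuclei below the gate the ratios were 4.06 for AFP, 5.203 for APOA1, 0.926 for APOB, 6.35 for TFPI, 3.04 for C3, 2.84 for LRP2 and 1.09 for GATA6, so the direction of LRP2 turned with the set compared. The APOB ratio rests on 1 nucleus, without which it was 2.54 (1.47 to 4.62). The whole secreted list stood at 1545 CPM in shallow barcodes, 489.8 CPM in the deep GATA2 and GATA3 nuclei and 471 CPM in deep nuclei below the gate. Ribosomal protein genes took 15.8% of UMIs in shallow low-mitochondrial barcodes. They took 2.34% in the deep GATA2 and GATA3 nuclei and 2.86% in deep nuclei below the gate.

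The mix of the 5 genes was similar in shallow low-mitochondrial barcodes and in the deep GATA2 and GATA3 nuclei, while mitochondrial-rich barcodes had a somewhat higher share of AFP. AFP made up 15.0% (13.92% to 16.16%) of rule-gene UMIs in shallow low-mitochondrial barcodes, 18.2% (16.19% to 20.35%) in mitochondrial-rich ones and 15.23% (12.28% to 18.6%) in the deep GATA2 and GATA3 nuclei. The first 2 of these intervals do not overlap. APOA1 made up 76.8%, 74.9% and 77.3%. TTR made up 3.42%, 3.00% and 3.76%. Deep nuclei below the gate of 2 GATA2 and GATA3 UMIs differed in APOB, with 8.33% (6.19% to 10.9%) against 1.66% (1.29% to 2.11%) in shallow barcodes. A single nucleus held 30 of their 47 APOB UMIs, and without it the share was 3.58% (2.10% to 5.67%). In the blastocyst library, 85 barcodes met the depth, gene and mitochondrial filters, and 21 of them (24.7%) had at least 2 rule-gene UMIs. Of their 67 rule-gene UMIs, 66 were APOA1 (331 CPM, 256 to 421). AFP was at 0 in these 85 barcodes, which allows up to 18.5 CPM.

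**Figure D4:**
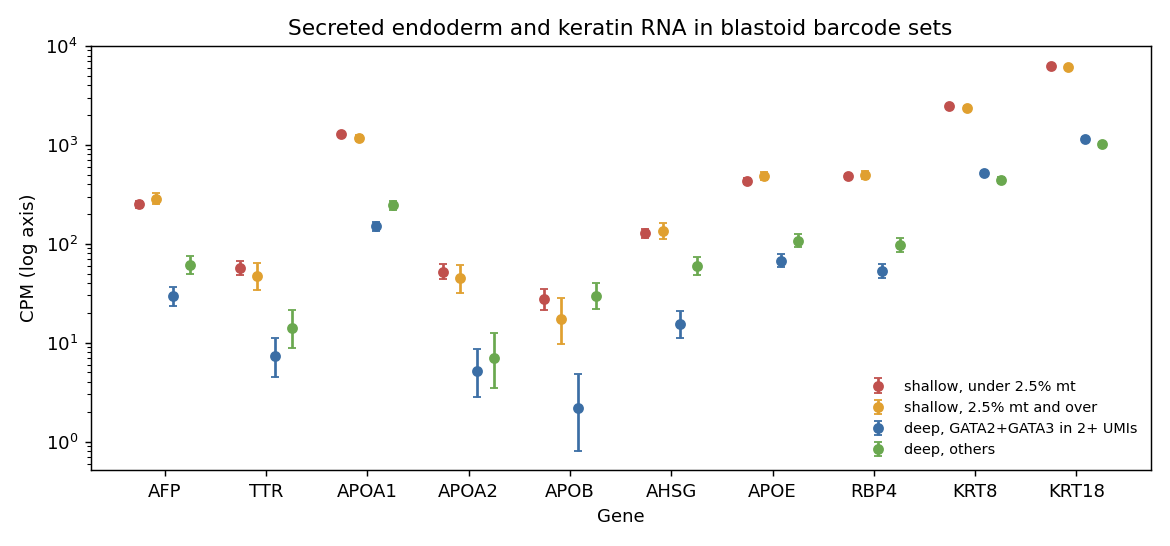
CPM (log axis) of the 5 rule genes, of 3 further secreted endoderm genes and of 2 keratins in 4 sets of blastoid barcodes, with exact Poisson 95% intervals. Both shallow sets lie together and above both deep sets for every gene shown except APOB, where deep nuclei below the gate of 2 GATA2 and GATA3 UMIs, at 29.9 CPM, overlap the shallow 27.7 CPM; without 1 nucleus they stand at 10.9 CPM.

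Within the shallow low-mitochondrial barcodes, the spread of AFP rested on 1 barcode. After thinning, its variance over mean was 1.45, above 99.6% of 483 genes with a similar mean, whose median was 1.08. With the highest barcode of each gene left out, AFP was at 1.11, above 79.3% of 498 such genes, and APOA1 at 1.23, above 94.4% of 71. With all barcodes APOA1 reached 1.25 (above 93.2% of 73 genes), TTR 1.15, APOA2 1.08 and APOB 1.07; RBP4 was at 1.12, AHSG at 1.05 and KRT18 at 1.09. AFP was at 0 in 801 barcodes, at 1 UMI in 303, at 2 in 90, at 3 in 18 and at 4 or more in 8. The 16 barcodes with at least 10 rule-gene UMIs were mostly rich in APOA1, with more APOA1 than AFP in 13 of them. They held 18 to 44 trophoblast-list UMIs each and 4 endoderm regulator UMIs in all.

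The 8 barcodes with at least 4 AFP UMIs, a minimum chosen after the values were seen, also held AHSG. Their AFP counts were 18, 10, 9, 7, 4, 4, 4 and 4, and their AHSG counts in the same order 2, 4, 2, 2, 1, 2, 2 and 1. AHSG, a plasma protein of fetal liver and yolk sac, was present in 8 of 8, against 162 of the 801 barcodes without AFP. Its level was 16 UMIs in 18303, a ratio of 7.099 (3.97 to 11.8) to the barcodes without AFP, at median depths of 2317.5 and 1874 UMIs. AHSG was singled out after its values were seen, as the highest ratio of 224 genes with at least 12 UMIs in these 8 barcodes, a minimum it passed only through its high level there, so the ratio is a description. SMARCC1, a chromatin remodelling subunit, was next at 4.72 (2.40 to 8.42), then LDHB, a lactate dehydrogenase, at 2.90 (1.48 to 5.13). Both had 12 UMIs in these 8 barcodes, exactly the minimum. They also passed it only through their high level there, so their ratios are descriptions too. The secreted list had a ratio of 2.23 (1.71 to 2.87), and 1.81 (1.33 to 2.42) without AHSG. APOA1 had a ratio of 1.42 (0.973 to 2.00), RBP4 1.22 (0.605 to 2.19), KRT18 1.13 (0.948 to 1.35) and the trophoblast list 1.00 (0.887 to 1.13). The endoderm regulators had 1 UMI in these 8.

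AHSG did not follow AFP at lower counts. It stood at 123 CPM (106 to 142) with 0 AFP UMIs, at 123 CPM (96.6 to 154) with 1 and at 108 CPM (70.2 to 160) with 2 to 3. HSP90B1, an ER chaperone (GRP94), stood at 863 CPM (817 to 911) with 0 AFP UMIs, 965 (889 to 1046) with 1, 1158 (1023 to 1306) with 2 to 3 and 2131 (1515 to 2913) with 4 or more. The whole ER list changed less, from 15367 CPM with 0 to 15714, 15770 and 16883 (15052 to 18874), with a ratio of 1.10 (0.979 to 1.23) between the last and the first group. Median depth also differed, at 1874, 2018, 2118 and 2317.5 UMIs, and its part in the result was not tested. HSP90B1 was singled out after its values were seen, as the fourth of 456 well counted genes by ratio, of which 0 reached 2-fold between barcodes with at least 2 and with 0 AFP UMIs. In the mitochondrial-rich shallow barcodes, which the rule did not use, HSP90B1 was at 1023 CPM (916 to 1140) with AFP and 791 CPM (719 to 869) without, a ratio of 1.29 (1.118 to 1.496). In deep nuclei the ratio was 1.07 (0.939 to 1.22). Genes were not ranked in these other sets, and their barcodes with and without AFP were not matched on depth.

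**Figure D5:**
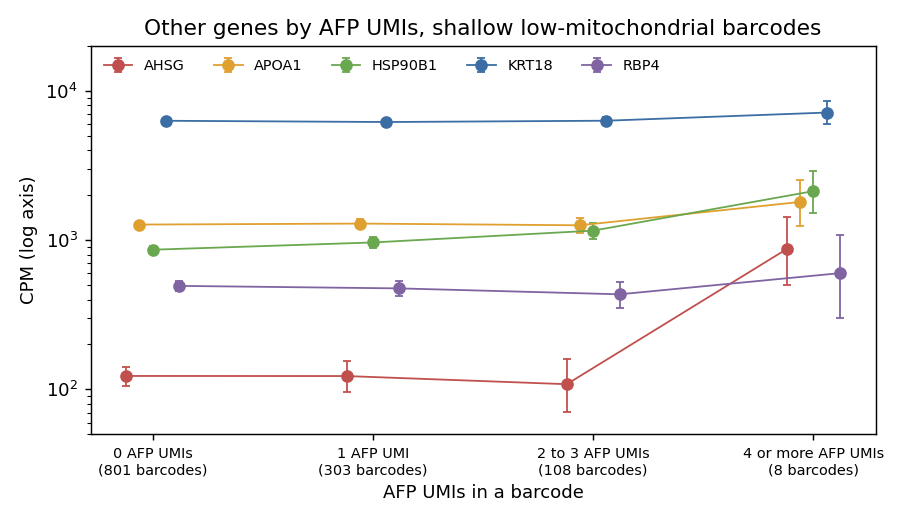
CPM (log axis) of AHSG, APOA1, HSP90B1, KRT18 and RBP4 in shallow low-mitochondrial barcodes grouped by AFP UMIs (801, 303, 108 and 8 barcodes), with exact Poisson 95% intervals. AHSG is near 123 CPM until the last group, HSP90B1 runs from 863 to 2131 CPM, and KRT18 and RBP4 have overlapping intervals in all 4 groups.

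Barcodes rich in AFP also existed outside the carriers. Among mitochondrial-rich shallow barcodes, 3 of 441 had at least 4 AFP UMIs. The highest held 32 AFP, 13 AHSG, 19 APOA1 and 19 FN1 UMIs in a total of 2346. The others held 6 AFP and 0 AHSG UMIs, and 5 AFP and 3 AHSG UMIs. Among deep nuclei, 3 of 288 reached that count. A nucleus of 12341 UMIs held 26 AFP, 55 AHSG, 30 APOB, 25 APOA1 and 7 TTR UMIs together with 3 of GATA4 and 2 of GATA6. The remaining deep nuclei had 4 and 5 AFP UMIs and 1 AHSG UMI each.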

How the data were processed

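Single-nucleus RNA libraries of 1 blastoid and 1 blastocyst sample were used. Both deposited matrices hold whole-number counts of UMIs; per the file headers the authors ran Cell Ranger 7.2.0 (7.1.0 per the submitters' processing notes, which also name Seurat 4.3.0). The build, the annotation and how cells were called are not given in the sources used here. Carriers and reference were defined as in the text; no doublets were removed, and a Scrublet-based removal (scanpy 1.11.5) of 30 of 1944 barcodes was an alternative. Counts were summed over barcodes, with exact Poisson, binomial and conditional 95% intervals (scipy 1.17.1). For ranking, counts under 3 were set to 3. Thinning to 1000 UMIs was without replacement. Neighbours used 2000 variable genes, 30 components and 15 neighbours. The steps were tested on simulated data. Named genes are list genes, the 12 highest and 12 lowest ratios among genes with a symbol, and 5 by detection. Neighbours in gene order and the top genes of the rankings by AFP UMIs are named too. The rule, its members and the lists were chosen with earlier results of these data known. Gene symbols are those of the deposited feature lists; list genes without a match there were not analysed here. Some genes that these rules name are not reported here. No sequences are shown.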

Additional observations from a re-analysis of the deposited data

How the results depend on the processing

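Each library is a single sample, so the values describe these barcodes, and 93 reference barcodes limit all ratios; genes under 50 UMIs in the matched sums entered no count of genes. No paired analysis was possible because each group had 1 library and the result comes from no test. The secreted endoderm ratio stayed inside its interval under all 14 alternatives (0.951 to 1.15), as did 212 of 223 ratios of the other 16 lists run; some ratios near 1 crossed it, among them the trophoblast list (0.930 to 1.04), basement membrane (0.879 to 1.32), endoderm regulators (0.902 to 1.80) and neural adhesion genes (0.929 to 1.21). What moved the following values was not tested. Wider sums and lower minimums also let more genes enter. The carrier share was 58.5% with at least 3 UMIs, 9.51% with AFP alone, 81.4% with at least 1000 genes and 17.4% without APOA1. Genes at least 2-fold higher and lower in carriers numbered 229 and 169 of 6088 with all barcodes and no match, 129 and 81 of 3536 when thinned to 1000 UMIs, and 100 and 129 of 3105 with a gene minimum of 20 UMIs. They numbered 0 and 0 of 458 with a minimum of 100, and 100 and 47 of 3404 when each reference barcode took 5 carriers. With AFP alone 12 of 1590 genes were higher, beside 7 of 1065 in the main setting. With a mitochondrial limit of 10%, 4 of 1452 were higher and 5 lower. Those lower numbered 4 of 1059 with at least 3 UMIs, 5 of 1008 under 3000 UMIs and 5 of 1030 with at least 10% ribosomal protein UMIs. The ribosomal protein ratio was 1.04 without matching, 1.03 when thinned, 0.978 under 3000 UMIs, 0.990 against barcodes with 1 UMI and 0.987 with at least 10% ribosomal protein UMIs. The last setting, the 5-carrier match, the omission of APOA1 and the omissions of a single barcode in the text were chosen after seeing the data.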
